A study of Mus musculus with 42 samples.

Results

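The genes described here encode the enzymes and membrane proteins of the lysosome, and were followed through a 30-day course of mouse embryonic stem cells directed towards osteoblasts. The members were 40 genes named by their known place in the lysosome, and the list was chosen with earlier results of these data known. A gene was read through each probe set that carried its symbol alone, and 1 probe set was used per gene, the one with the highest mean log2 signal, with the first chip preferred. Of the 40 genes, 39 had such a probe set, out of 18194 genes with one on either chip. Cd63 had none and was not analysed here. After a filter on low signal, 38 genes were tested, 37 on the MOE430A chip and Arsb on MOE430B. Galc, the galactosylceramidase gene, did not pass the filter with any of its 3 probe sets, and its mean log2 signal was 8.17 on day 4 and 7.83 on day 30.

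The cells were the D3 line, derived from a mouse blastocyst, and the growth notes of every sample list vitamin D3, beta-glycerophosphate and ascorbic acid in DMEM. RNA was taken on days 4, 5, 6 and 8 and again on days 16, 25 and 30, with 3 replicates a day, and each was hybridised to both chips, which gave 42 arrays. No arrays of cells without the supplements were analysed here, so days in culture and the supplements cannot be told apart. The titles carry the tag VD3 from day 6 on and not on days 4 and 5, so the labels do not settle if the cells of those days had received vitamin D3, and such a difference would coincide with every comparison against day 4 or 5. Days 6 and 16 both carry the tag. The labels describe the line as a pure clone, name no sort by cell type, and leave unstated if a day's replicates were cultured apart. The p-values therefore rest on the spread among these samples, which may be technical.

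Lysosomes are acidic compartments in which proteins, glycans, sulfated sugars and lipids are taken apart by hydrolases that work at low pH. The hydrolases are made in the endoplasmic reticulum, most are tagged with mannose 6-phosphate and carried to the lysosome by receptors, and a proton pump in the membrane keeps the compartment acidic. Many of these genes share a short promoter motif read by the transcription factor TFEB and its relatives. In bone, osteoclasts secrete some of the same enzymes onto the bone surface, cathepsin K above all, and macrophages and the endoderm of the yolk sac are rich in lysosomes.

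Lysosomal genes rose as the course went on. Between day 4 and day 30, 22 of the 38 tested genes rose, none fell and 16 did not pass the test (limma, adjusted p under 0.05 over all probe sets of the chip). Over all 15040 genes tested in the same way, 12.3% rose and 10.6% fell. The median difference was 1.11 on the log2 scale for the 38 genes and -0.03 for all genes. In RNA of whole cultures, more cells of a type rich in lysosomes and more RNA per cell cannot be told apart. The 22 rises ran from 0.75 to 3.30 on the log2 scale, or 1.68-fold to 9.84-fold. All 3 day 30 values lay above all 3 day 4 values for 22 genes, against 17.4% of all genes, and all 3 below for none, against 16.9%. Of the 22 rises, 17 kept their call when any single array of either day was left out. The other probe sets of the risers gave a mixed reading: 11 of 15 tested on MOE430A rose, but 2 of 10 on MOE430B did and 1 fell. The 5 calls that single arrays decided, of Neu1, Man2b1, Manba, Naglu and Ctsc, are described with their enzyme classes.

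**Figure D1:**
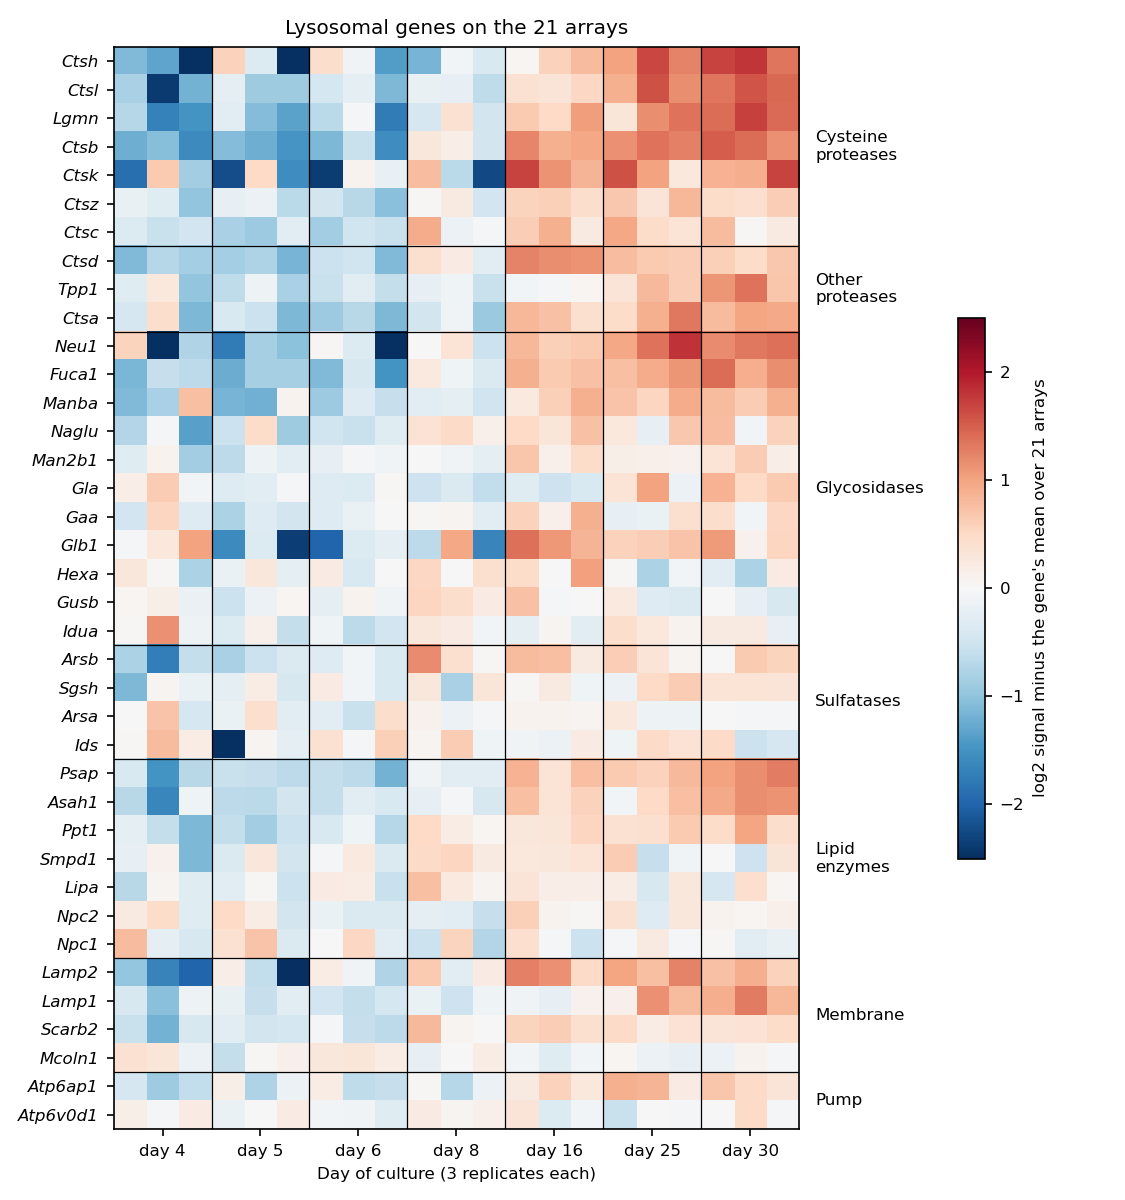
The heat map shows the log2 signal of the 38 tested genes (rows, grouped by role) on the 21 arrays of their chip (columns, 3 replicates for each of 7 days), minus the gene's mean over those arrays, with colours that stop at 2.5 in either direction. The red of days 16, 25 and 30 is densest among the cysteine proteases, and rows such as Npc2, Mcoln1 and Atp6v0d1 stay near white.

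Some measurements bear on every comparison of late with early days. By the scan times in the array files, days 4 and 30 were read in different sessions on both chips, so the day and the scan session cannot be told apart in that comparison. On MOE430A, days 6, 8 and 16 were read in 1 session. The log2 ratio of the 3' to the 5' control probe sets of Gapdh, a measure of RNA length, was 2.63 ± 0.37 (SD, n = 3) on day 4 and 3.27 ± 0.19 on day 30 on that chip, with no overlap, and 2.54 ± 0.68 on day 6 and 2.55 ± 0.15 on day 16. With this ratio as a covariate 20 of the lysosomal genes rose between days 4 and 30, and 13 between days 6 and 16. Pearson correlations between replicates of 1 day on this chip ran from 0.853 to 0.940 across probe sets, which are not independent replicates.

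The cysteine proteases had the highest class median. Cathepsins B, C, H, L and Z and legumain were among the risers, 6 of the 7 in this class, at 2.64 on the log2 scale. These enzymes cut proteins with an active-site cysteine, and legumain also processes other cathepsins to their mature forms. Ctsh, the gene of the aminopeptidase cathepsin H, read 11.28, 11.06 and 9.74 log2 units on the day 4 arrays and 14.07, 14.18 and 13.72 on the day 30 arrays. All day 30 values lay well above the day 4 values. The rise was 3.30 (SE 0.59, adjusted p = 0.000299), and a second probe set of Ctsh on MOE430B rose by 3.25.

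Ctsl, the gene of the endopeptidase cathepsin L, read 13.89, 12.30 and 13.52 on day 4 and 16.04, 16.26 and 16.13 on day 30. The day 30 arrays lay close together and all above day 4, with a rise of 2.91 (SE 0.31, adjusted p = 1.18e-06). Another Ctsl probe set, on MOE430B, read -0.48 in the same comparison (adjusted p = 0.83). Lgmn, the legumain gene, read 10.42, 9.44 and 9.64 on day 4 and 12.53, 12.84 and 12.56 on day 30. The groups lay apart, and the difference was 2.81 (SE 0.39, adjusted p = 2.49e-05).

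Ctsb, the gene of cathepsin B, had the smallest adjusted p of all the lysosomal genes in this comparison. It read 11.67, 11.83 and 11.29 on day 4 and 14.40, 14.28 and 14.02 on day 30, without overlap, a rise of 2.64 (SE 0.24, adjusted p = 1.48e-07). The other 3 Ctsb probe sets on MOE430A rose, by 2.81, by 1.56 and, for 1 with day 4 values below the 20th percentile of the chip, at least 4.14-fold, while 1 on MOE430B read -0.54 (adjusted p = 0.746). Ctsz, a carboxypeptidase gene, rose by 0.99 (SE 0.24, adjusted p = 0.00373). Ctsc, whose dipeptidyl peptidase activates serine proteases of immune cells, rose by 0.81 (SE 0.28, adjusted p = 0.0344). The Ctsc call was lost without replicate 2 or 3 of day 4 (adjusted p = 0.0834 and 0.0715) or replicate 1 or 3 of day 30 (adjusted p = 0.177 and 0.0536). Of its 2 other probe sets, on MOE430B, 1 read 0.61 (adjusted p = 0.353) and 1 rose at least 2.39-fold (adjusted p = 0.0286).

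Ctsk, the collagen-cutting cathepsin of osteoclasts, was the 1 cysteine protease that did not pass. It read 6.30, 8.85 and 7.33 on day 4 and 9.07, 9.11 and 9.88 on day 30. All 3 late values lay above the early ones, but the early values spread over more than 2 log2 units, and the difference was 1.86 (SE 0.81, adjusted p = 0.0948). Since 1 day 4 value lay below the 20th percentile of the chip, the fold is a bound of at least 3.12. Without replicate 2 of day 4 the fitted difference was 2.54 and passed (adjusted p = 0.0375). Its highest day mean was 9.41 on day 16.

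The 3 other proteases all rose. Ctsd, the gene of the aspartic protease cathepsin D, read 12.05, 12.45 and 12.30 on day 4 and 13.75, 13.61 and 13.82 on day 30, without overlap. Its rise was 1.46 (SE 0.20, adjusted p = 1.66e-05). Tpp1, a tripeptidyl peptidase gene that is mutated in a childhood form of neuronal ceroid lipofuscinosis, rose by 1.40 (SE 0.26, adjusted p = 0.000483). Ctsa, whose product is a carboxypeptidase and also holds the sialidase and beta-galactosidase in a complex, rose by 1.28 (SE 0.32, adjusted p = 0.00487), while its probe set on MOE430B read -0.60 (adjusted p = 0.228).

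Among the glycosidases, which remove sugars from glycoproteins and glycolipids, 5 of 11 rose, with a class median of 0.42. Fuca1, the alpha-fucosidase gene, read 9.92, 10.50 and 10.42 on day 4 and 12.46, 11.97 and 12.22 on day 30. The groups lay apart, with a rise of 1.93 (SE 0.26, adjusted p = 1.37e-05). Its other 2 tested probe sets read 0.95 and 0.83 (adjusted p = 0.0931 and 0.105).

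Neu1, the gene of the sialidase that Ctsa protects, read 9.21, 6.07 and 7.91 on day 4 and 9.84, 9.98 and 10.04 on day 30. The day 4 values were scattered, 1 of them below the 20th percentile of the chip, so the rise is given as at least 3.81-fold (fitted difference 2.22, SE 0.69, adjusted p = 0.0196). The Neu1 call was lost without replicate 2 of day 4 (1.39, adjusted p = 0.136), replicate 2 of day 30 (adjusted p = 0.0507) or replicate 3 of day 30 (adjusted p = 0.053), and the difference was 2.96 without replicate 1 of day 4. Its next probe set read -0.33 (adjusted p = 0.782).

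The mannosidase genes Manba and Man2b1 rose by 1.15 (SE 0.38, adjusted p = 0.0297) and 0.75 (SE 0.22, adjusted p = 0.0162). Naglu, which acts on heparan sulfate, rose by 1.13 (SE 0.37, adjusted p = 0.0259), and for Naglu and Manba the day 4 and day 30 values overlapped. Each of these calls depended on single arrays. The Manba call held without replicate 3 of day 4 and was lost without any of the other 5 arrays (adjusted p from 0.0521 to 0.154). The Naglu call was lost without replicate 1 or 3 of day 4 (adjusted p = 0.0537 and 0.137) or of day 30 (adjusted p = 0.106 and 0.0782), and the Man2b1 call without replicate 3 of day 4 (adjusted p = 0.107) or replicate 2 of day 30 (adjusted p = 0.0827).

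The remaining 6 tested glycosidases did not pass. The values were 0.42 for Gla (the alpha-galactosidase of Fabry disease), 0.39 for Gaa (acid alpha-glucosidase), 0.16 for Glb1 (beta-galactosidase), -0.13 for Hexa (a subunit of beta-hexosaminidase), -0.22 for Gusb (beta-glucuronidase) and -0.27 for Idua (alpha-iduronidase). All of them had overlapping groups. Other tested probe sets read 0.77 for Gaa (adjusted p = 0.0532), 0.62 for Idua (adjusted p = 0.207) and 0.26 for Gla (adjusted p = 0.925).

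Of the 4 sulfatases, which strip sulfate from glycosaminoglycans and sulfated lipids, 1 rose. Arsb, the gene of arylsulfatase B, read 10.84, 9.90 and 11.03 on day 4 and 11.64, 12.29 and 12.19 on day 30, without overlap, a rise of 1.45 (SE 0.32, adjusted p = 0.00454). Its 3 probe sets disagreed: a second on MOE430B fell, at -1.48 (adjusted p = 0.0349), and another read -0.95 (adjusted p = 0.624). Sgsh, the heparan N-sulfatase gene, read 0.74 (adjusted p = 0.123) although its day 30 values all lay above day 4. The values for Arsa (arylsulfatase A) and Ids (iduronate sulfatase) were -0.13 and -0.49, with overlapping groups. Other tested probe sets of Ids read -0.19 on MOE430A and 0.73 on MOE430B (adjusted p = 0.825 and 0.172). Another of Sgsh read -0.29 (adjusted p = 0.631).

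Among the 7 genes of lipid breakdown and transfer 3 rose, and the class median was 0.35. Psap encodes prosaposin, the precursor of the 4 saposins that lift sphingolipids out of membranes for the hydrolases. It read 13.43, 12.32 and 13.13 on day 4 and 14.81, 14.98 and 15.10 on day 30. The groups lay apart, and the rise was 2.00 (SE 0.23, adjusted p = 2.43e-06), with 2.06 from the same probe set on MOE430B and 1.10 from another on MOE430A (adjusted p = 0.000384). Asah1, the acid ceramidase gene, rose by 1.88 (SE 0.28, adjusted p = 4.41e-05), and Ppt1, the palmitoyl-protein thioesterase gene, by 1.28 (SE 0.25, adjusted p = 0.000562). The other 3 tested probe sets of Ppt1 did not pass, at 1.05, -0.45 and -0.60 (adjusted p = 0.105, 0.755 and 0.71).

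The other 4 lipid genes did not pass. The difference was 0.35 for Smpd1 (acid sphingomyelinase), 0.33 for Lipa (acid lipase), -0.04 for Npc2 and -0.20 for Npc1, the pair that hands cholesterol out of the lysosome. Npc2 read 15.82, 16.05 and 15.29 on day 4 and 15.68, 15.63 and 15.72 on day 30, inside the day 4 range. Other probe sets of 2 of these genes did pass, at 0.86 for Lipa (adjusted p = 0.0179) and 1.71 for Npc2 (adjusted p = 0.0498).

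Of the 4 tested membrane proteins, 3 rose. Lamp2, one of the heavily glycosylated proteins that line the lysosomal membrane, read 12.46, 11.76 and 11.45 on day 4 and 14.16, 14.34 and 14.01 on day 30, without overlap, a rise of 2.28 (SE 0.50, adjusted p = 0.00171). Its other 3 probe sets rose, by 3.05, by 2.87 and at least 9.55-fold. Lamp1, its relative, read 14.44, 13.79 and 14.72 on day 4 and 15.74, 16.13 and 15.67 on day 30. Those groups lay apart as well, with a rise of 1.53 (SE 0.25, adjusted p = 0.000104). Scarb2, which carries glucocerebrosidase to the lysosome, rose by 1.09 (SE 0.23, adjusted p = 0.0013). Mcoln1, the calcium channel of the membrane, read -0.22 (adjusted p = 0.476).

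Of the 2 proton pump genes among the members, Atp6ap1, an accessory subunit, read 11.36, 10.88 and 11.17 on day 4 and 12.47, 12.26 and 12.10 on day 30, without overlap. Its rise was 1.14 (SE 0.28, adjusted p = 0.00402). Atp6v0d1, a subunit of the membrane sector, read 0.05 (SE 0.21, adjusted p = 0.896).

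**Figure D2:**
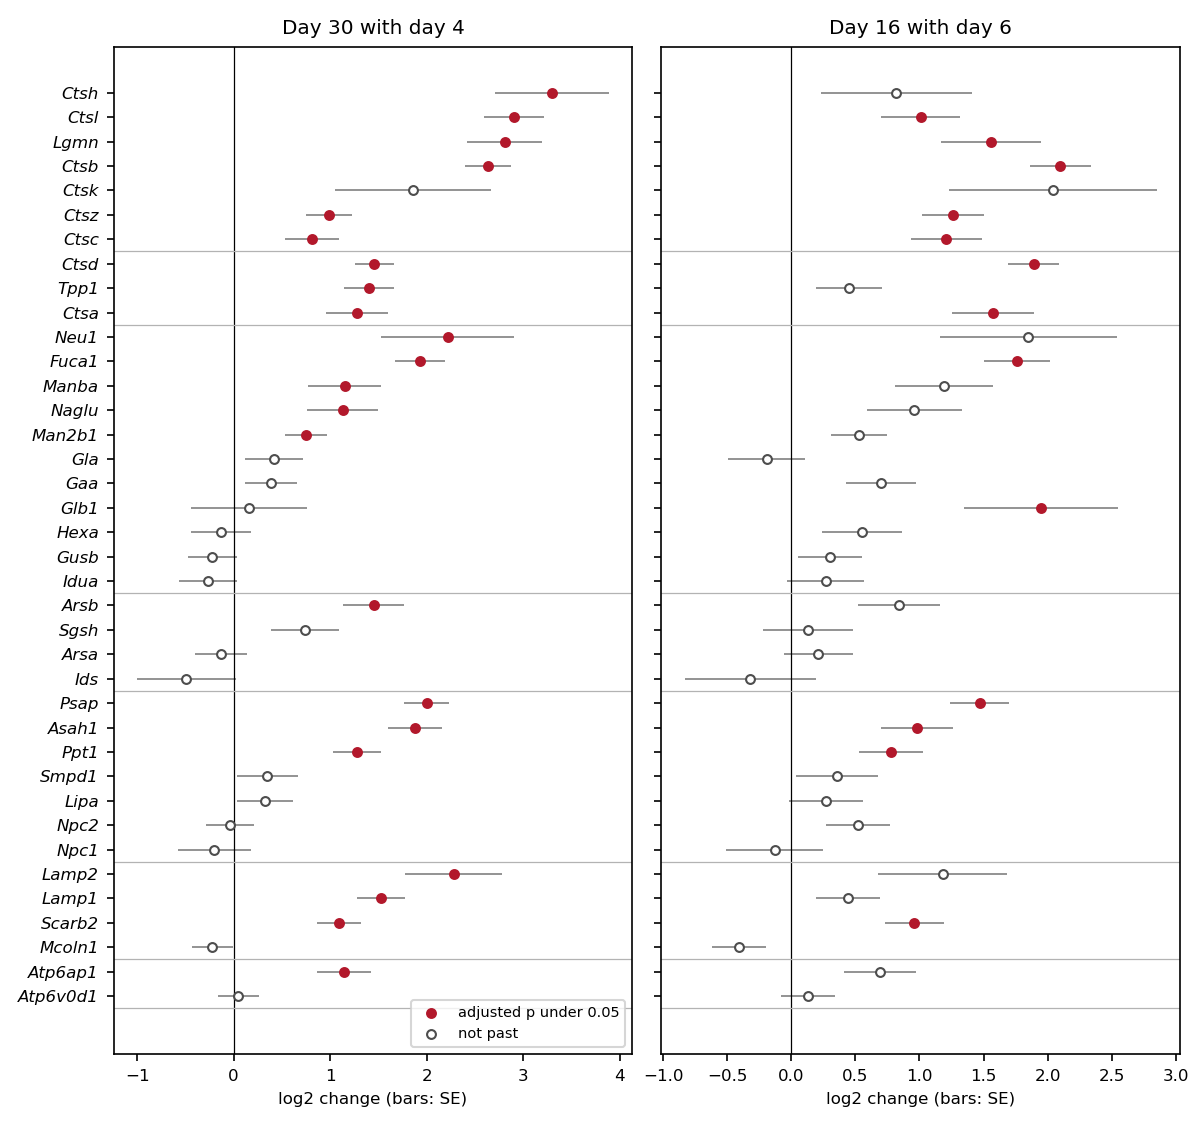
Each point is the log2 difference of 1 gene between 2 days, with the SE as a bar, for day 30 with day 4 (left) and day 16 with day 6 (right), and genes are grouped by role from the cysteine proteases at the top to the pump at the bottom. Filled points passed an adjusted p of 0.05; all filled points, 22 on the left and 13 on the right, lie to the right of 0.

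Promoter sequences of the members are shown because many of them rose together and the motif of the TFEB family is known from lysosomal genes. The window ran from 250 bases before to 50 bases after each start site, in the RefSeq promoters of mouse build GRCm38.p6, and 36 of the 40 genes had one. Asah1, Ctsb, Ctsh and Npc1 had none. The letters searched were CACGTG, which read the same on both strands. They occurred in 13 of the 36 members (36.1%), in 8.09% of all 27025 genes with a window, and in 10.7% of the 12380 genes that were also tested on the chips. The longer TCACGTG, on either strand and overlapping the shorter motif, was present in 12 members (33.3%) and in 6.17% of the tested genes. Longer forms around the same 6 letters were searched too. One of 8 letters was present in 5 members (13.9%) and in 1.82% of the tested genes. One of 10 letters was present in 0 of the 36 members and in 0.646% of the tested genes. CACGTG was in 6 of the 19 that rose (31.6%) and in 7 of the 15 that did not pass (46.7%). A match describes letters in a window, not a bound site. Below are stretches upstream of the start site, 5′ to 3′ on the gene's strand, with each CACGTG in capitals. The first 4 genes rose, and lie at chr8:13159088-13159160 (plus strand), chr12:102439124-102439153 (minus), chr7:142387908-142387937 (minus) and chr11:101070009-101070038 (plus).
Lamp1: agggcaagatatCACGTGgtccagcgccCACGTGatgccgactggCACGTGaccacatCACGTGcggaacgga
Lgmn: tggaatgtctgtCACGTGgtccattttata
Ctsd: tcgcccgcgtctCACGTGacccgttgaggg
Naglu: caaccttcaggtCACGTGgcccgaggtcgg
The next 4 did not pass between days 4 and 30, and lie at chr8:3500436-3500491 (plus), chrX:134601182-134601244 (minus), chr9:114401018-114401047 (plus) and chr11:119267811-119267840 (plus).
Mcoln1: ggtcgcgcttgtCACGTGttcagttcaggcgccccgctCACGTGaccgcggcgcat
Gla: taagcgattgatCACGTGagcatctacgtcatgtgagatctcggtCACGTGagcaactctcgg
Glb1: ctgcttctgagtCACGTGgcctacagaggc
Gaa: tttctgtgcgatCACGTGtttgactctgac
The Lamp1 stretch of 73 bases holds 4 copies, and those of Mcoln1 and Gla hold 2 each. Ctsd has another copy farther upstream in its window that is not shown. The Lgmn stretch lies before a start site inside the gene, whose 5′ end is at 102439728. Lamp1 rose by 1.53 and Mcoln1 read -0.22, so copies of the motif stood before genes of both kinds.

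Taken as the median over the genes, most of the rise came between days 6 and 16. Over all 7 days, 24 of the 38 genes differed between days (F test in limma, adjusted p under 0.05), against 29.2% of all genes. The 24 were the 22 risers with Gla and Glb1. On each array the median of the 37 MOE430A genes was taken, each gene centred on its own mean. The mean of this median over a day's arrays stood at -0.34 on day 4, -0.39 on day 5 and -0.38 on day 6. It then went to -0.07 on day 8, 0.42 on day 16, 0.50 on day 25 and 0.57 on day 30. Among the 22 risers, which were chosen for their day 30 level, the median share of the final difference reached was 14.4% on day 6, 38.4% on day 8, 82.8% on day 16 and 93.6% on day 25. Single genes departed from this. Between days 6 and 16 the share went from 41% to 66% for Ctsh and from 30% to 64% for Ctsl. For Lamp1 it went from 2% to 30% and for Tpp1 from -9% to 23%, so most of the rise of these genes lay outside those days. No gene of the 38 passed in limma between days 4 and 5 or days 25 and 30, where 0% of all genes passed, and 3 and 1 of the 38 had an unadjusted p under 0.05 (7.97% and 5% of all genes). None passed between days 5 and 6, days 6 and 8 or days 16 and 25, where 0.0798%, 0.0997% and 0.399% of all genes did, and 1, 10 and 6 of the 38 had an unadjusted p under 0.05 (7.52%, 7.49% and 12.2% of all genes).

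**Figure D3:**
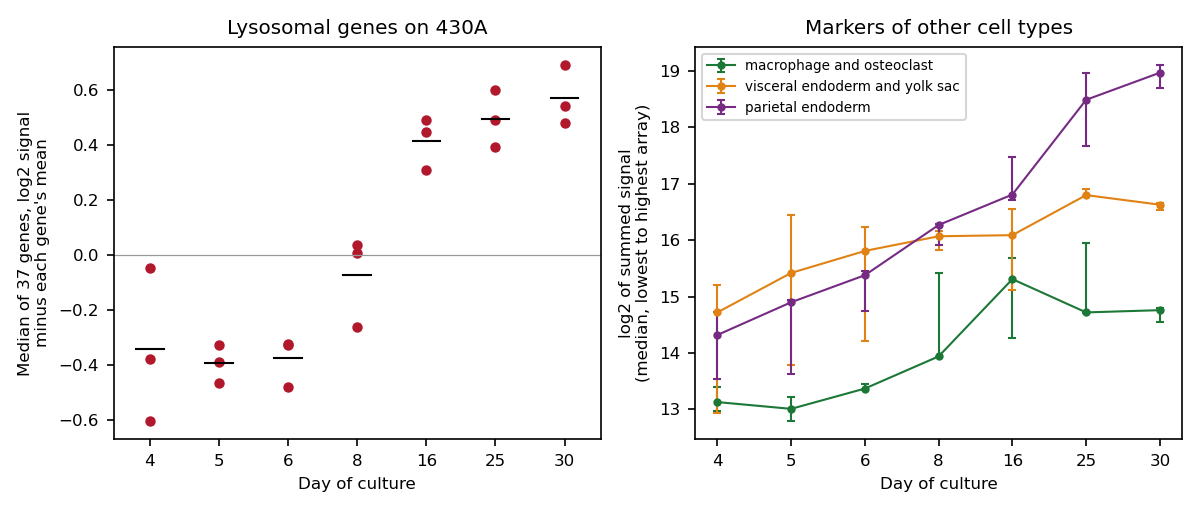
Left, for each of the 21 MOE430A arrays (red points, 3 a day), the median over 37 lysosomal genes of the log2 signal minus each gene's mean, with the mean of the 3 arrays as a black bar; days are evenly spaced. Right, the log2 of the summed signal of 3 lists of markers of other cell types, as the median array with bars to the lowest and highest; the day 16, 25 and 30 arrays of the left panel all lie above the others, and the macrophage and osteoclast sum is highest on day 16 while the parietal endoderm sum climbs to day 30.

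Against day 4, 7 genes had risen by day 8 (7.79% of all genes), 18 by day 16 (11.8%) and 20 by day 25 (11.2%). The 7 on day 8 were Arsb, Ctsb, Ctsd, Ctsl, Lamp2, Ppt1 and Scarb2. This count rested on 1 array, since without replicate 1 of day 8 it was 2. The Gapdh ratio was highest on day 25, at 3.84 ± 0.38 (SD, n = 3), and with it as a covariate 14 genes had risen by that day. These comparisons share the day 4 arrays.

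Days 6 and 16, read in 1 scan session on MOE430A and both without the higher Gapdh ratio, gave the same direction. Between them 13 genes rose and none fell, where 5.72% of all genes rose and 3.58% fell, and all 3 day 16 values lay above day 6 for 26 of the 38 genes, against 15.5% of all genes. The risers were Asah1, Ctsa, Ctsb, Ctsc, Ctsd, Ctsl, Ctsz, Fuca1, Glb1, Lgmn, Ppt1, Psap and Scarb2, of which 12 also rose between days 4 and 30 and Glb1 did not. Ctsb rose by 2.10, Ctsd by 1.89, Fuca1 by 1.76 and Psap by 1.47 on the log2 scale. The count was 8 without replicate 3 of day 6 and 8 without replicate 3 of day 16. Calls for Ctsa, Ctsb, Ctsc, Ctsd, Ctsz, Fuca1 and Psap held without any single array, and the other 6 were lost under at least 1. Glb1 was lost without any array but replicate 3 of day 6 (adjusted p from 0.0518 to 0.185), and Ctsl and Ppt1 without any but replicate 2 of day 6 (adjusted p up to 0.211 and 0.202). Asah1 was lost without replicate 1 or 3 of either day (adjusted p up to 0.117), Lgmn without replicate 3 of either day (adjusted p = 0.0982 and 0.0534), and Scarb2 without replicate 3 of day 6 (adjusted p = 0.0541).

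Whole courses are given for the member of each role with the smallest F test p. Ctsb had day means of 11.60, 11.63, 11.81, 12.88, 13.91, 14.14 and 14.23 on the 7 days (SD from 0.10 to 0.50, n = 3 a day). Psap ran from 12.96, 13.22 and 13.00 through 13.59 on day 8 to 14.47, 14.49 and 14.96 (SD from 0.06 to 0.57). Fuca1 ran from 10.28, 10.10 and 10.07 through 10.99 on day 8 to 11.82, 11.99 and 12.22 (SD from 0.12 to 0.55). These 3 genes were flat over the first 3 days and had gained most of their difference by day 16.

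Ctsd followed the same early course, with 12.27, 12.23, 12.44 and 13.27 up to day 8, then 14.33, 13.83 and 13.73 (SD from 0.06 to 0.34). Arsb had day means of 10.59, 11.07, 11.38, 12.17, 12.22, 11.97 and 12.04 (SD from 0.17 to 0.61), and was near its last level by day 8. Atp6ap1 had 11.14, 11.52, 11.44, 11.51, 12.14, 12.42 and 12.27 (SD from 0.19 to 0.47). Lamp1 differed in its timing, with 14.31, 14.50, 14.34, 14.58 and 14.77 up to day 16 and 15.53 and 15.85 on days 25 and 30 (SD from 0.09 to 0.51).

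Single steps were tested as well. Between days 8 and 16, 3 genes rose, Ctsb by 1.03, Ctsd by 1.06 and Psap by 0.87, where 2.01% of all genes rose. The Ctsd call held without any single array. The Ctsb call was lost without replicate 3 of day 8 (adjusted p = 0.158) or replicate 1 of day 16 (adjusted p = 0.113), and the Psap call without any array but replicate 2 of day 16 (adjusted p up to 0.203).

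Ctsd had its highest mean on day 16, at 14.33 ± 0.06 (SD, n = 3), and stood at 13.73 ± 0.11 on day 30, with all 3 day 30 values below day 16. That later difference of -0.60 did not pass (adjusted p = 0.102). Lamp1 and Tpp1 moved late. Tpp1 read 12.46, 13.03 and 11.78 on day 4, then 12.68, 12.73 and 12.80 on day 16, and 13.87, 14.12 and 13.46 on day 30. Its day 16 arrays lay inside the day 4 range and the day 30 arrays above both. From day 16 to day 30 Tpp1 rose by 1.08 (adjusted p = 0.0277) and Lamp1 by 1.07 (adjusted p = 0.0208), the 2 genes that passed in that comparison, where 0.891% of all genes rose. The Tpp1 call was lost without any array but replicate 3 of day 30 (adjusted p up to 0.151). The Lamp1 call was lost without replicate 1 or 2 of day 16 or replicate 2 of day 30 (adjusted p = 0.0864, 0.0988 and 0.118).

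**Figure D4:**
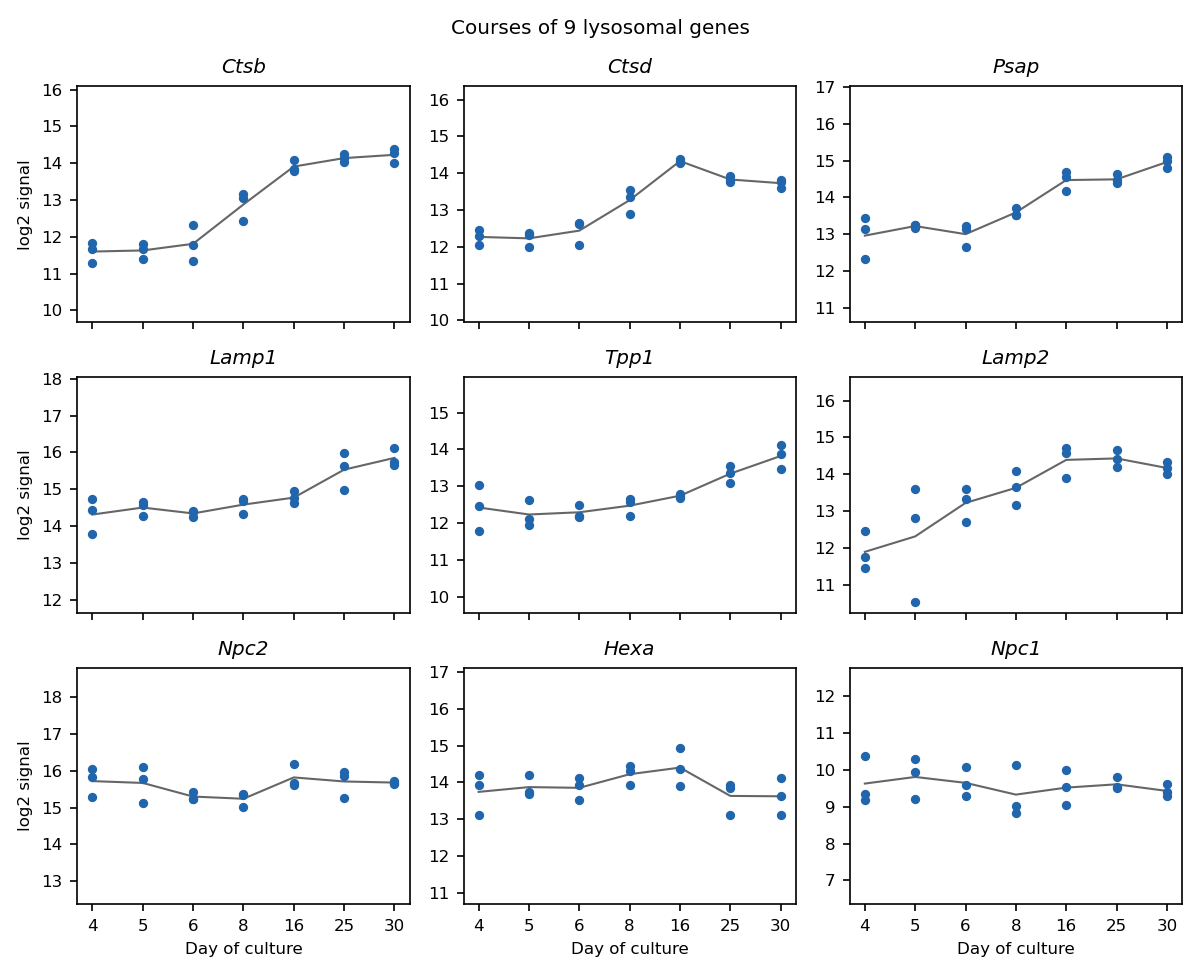
Each panel gives the log2 signal of 1 gene on every array (points, 3 a day) and the day means (line), with evenly spaced days and axes that span the same number of log2 units. Ctsb, Ctsd and Psap climb between days 6 and 16, Lamp1 and Tpp1 after day 16, Lamp2 from day 4 on with 1 low array on day 5, and Npc2, Hexa and Npc1 have overlapping values on days 4 and 30.

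By day 6, Lamp2, Arsb and Ctsh had covered the largest shares of their final difference among the 22 risers, at 58%, 54% and 41%. Lamp2 had day means of 11.89 ± 0.52, 12.31 ± 1.60, 13.22 ± 0.47, 13.63 ± 0.46 and 14.39 ± 0.42 (SD, n = 3 each) from day 4 to day 16, with 1 day 5 array at 10.52. Ctsh had 10.69 ± 0.84, 11.57 ± 1.67, 12.03 ± 0.94, 11.85 ± 0.56 and 12.86 ± 0.38 over the same days, and 13.99 ± 0.24 on day 30. Between days 4 and 6 no gene of the 38 passed in limma, against 5.13% of all genes, and 6 had an unadjusted p under 0.05 (20.1% of all genes). Ctsl went from 13.23 ± 0.83 on day 4 to 14.34 ± 0.25 on day 8, 15.10 ± 0.10 on day 16 and 16.14 ± 0.11 on day 30.

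Lgmn had means of 9.84 ± 0.52, 10.97 ± 0.48, 11.87 ± 0.29 and 12.64 ± 0.17 on days 4, 8, 16 and 30. Neu1 had means of 7.73 ± 1.58 on day 4, 7.45 ± 0.49 on day 5 and 7.49 ± 1.76 on day 6, followed by 9.34 ± 0.13, 10.03 ± 0.43 and 9.95 ± 0.10 on days 16, 25 and 30. Glb1 had its lowest mean of 7.16 ± 1.02 on day 5, its highest of 9.67 ± 0.26 on day 16 and 9.14 ± 0.48 on day 30, close to the 8.98 ± 0.53 of day 4. Of the 22 risers, 12 had their highest day mean on day 30, 5 on day 25 and 5 on day 16.

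Some other genes of the lysosomal pathway rose too, and their counts stand against the 12.3% of all genes that rose and 10.6% that fell. Of 15 other tested subunits of the proton pump 5 rose and none fell between days 4 and 30, with a median of 0.55. They included Atp6v1h (1.63) and Atp6v1a (1.33) of the cytosolic sector, Atp6v0e (1.23) of the membrane sector and Atp6ap2 (1.16), an accessory protein. All 4 kept their call without any single array, and Atp6v1h read 0.89 without replicate 2 of day 4. Atp6v0a2, the other riser, at 0.62, lost its call in 5 of 6 cases with 1 array left out (adjusted p up to 0.181). Of 23 genes that sort proteins to lysosomes 5 rose and none fell, with a median of 0.32. Sumf1, which activates all sulfatases by modifying a cysteine in their active site, rose by 1.94 (adjusted p = 0.000381). M6pr, the small mannose 6-phosphate receptor, rose by 1.12 (adjusted p = 0.000188).

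Cln8, a receptor that carries enzymes out of the endoplasmic reticulum, and Vps26a of the retromer rose by 1.52 and 0.97. The Cln8 call was lost without replicate 2 of day 4 or replicate 1 or 2 of day 30 (adjusted p = 0.104, 0.0618 and 0.0686). That of Vps26a was lost without replicate 1 or 2 of day 4 or replicate 2 or 3 of day 30 (adjusted p = 0.0763, 0.107, 0.131 and 0.0886). Vps35, another riser among the sorting genes, at 0.87, lost its call in 3 of 6 cases with 1 array left out (adjusted p up to 0.202).

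Of 34 other tested lysosomal genes 13 rose and 2 fell, with a median of 0.56. Ctsf, another cysteine cathepsin, was at least 7.92-fold higher (adjusted p = 7.08e-05). Gm2a, the activator protein for ganglioside breakdown, rose by 2.04 (adjusted p = 2.44e-05), and Aga, which cuts sugar from asparagine, by 1.95 (adjusted p = 0.00583). Acp5, the tartrate-resistant phosphatase of osteoclasts, was at least 3.42-fold higher, a call lost without replicate 1 of day 4 (1.05, adjusted p = 0.136) or of day 30 (adjusted p = 0.0728). With 1 array left out, the calls of Cpq, Scpep1 and Ctns were lost in 3, 3 and 2 of 6 cases (adjusted p up to 0.153, 0.152 and 0.0863). The 2 that fell, named after their values were seen, were Laptm4b at -1.04, a membrane protein of endosomes and lysosomes, and Prcp at -0.92, a carboxypeptidase. The Prcp call was lost without replicate 3 of day 4 or replicate 1 of day 30 (adjusted p = 0.0688 and 0.106).

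Of 23 autophagy genes 6 rose and none fell, with a median of 0.38. Gabarapl1 and Gabarap, which coat the autophagosome membrane, rose by 1.35 and 1.15, and Ulk2, a kinase that starts autophagy, by 1.26. Atg12, part of the conjugation system, rose by 0.96, a call lost without replicate 2 of day 4 (adjusted p = 0.146) or any 1 day 30 array (adjusted p from 0.0694 to 0.0967). With 1 array left out, the calls of Wipi1 and Nbr1 were lost in 5 and 2 of 6 cases (adjusted p up to 0.16 and 0.0576).

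Of 19 genes of the TFEB family and of mTORC1 at the lysosome 2 rose and 1 fell, with a median of 0.41. Tfec, a relative of TFEB, was at least 2.79-fold higher and Rragc, a GTPase that brings mTORC1 to the lysosome, rose by 1.20, while Mtor, the kinase itself, fell by 0.76 on the log2 scale. The Tfec call held without replicate 2 of day 4 and was lost without any other of the 6 arrays (adjusted p from 0.0633 to 0.104), and the Mtor call was lost without replicate 2 of day 4 (adjusted p = 0.0732). Tfeb read -0.54 (adjusted p = 0.593), Tfe3 -0.07 (adjusted p = 0.924) and Mitf 0.74 (adjusted p = 0.24), 3 genes named here for their role and not by the size of their change.

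Markers of other cell types moved over the same days. Over all genes, 12.3% rose and 10.6% fell between days 4 and 30. Between days 6 and 16, 5.72% rose and 3.58% fell. The counts of each marker list below stand against these shares. Of 18 macrophage and osteoclast markers tested, some of which are lysosomal genes themselves (Acp5, Cd68), 5 rose and none fell between days 4 and 30. The other 13 did not pass, and the median was 0.84. Between days 6 and 16, 7 rose. Adgre1, Laptm5, Lyz2 and Tyrobp rose between days 4 and 16 and did not pass between days 4 and 30. From day 16 to day 30 the median was -1.15, and none passed. Csf1r, the receptor for the macrophage growth factor, rose 8.22-fold, and Cd14 rose 4.00-fold. Ptprc, the pan-leukocyte marker, was at least 2.48-fold higher, a call lost without replicate 2 of day 4 (2.5, adjusted p = 0.0604), with a log2 difference of 3.69 over all arrays and 4.99 without replicate 1 of day 4.

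The log2 of the summed signal of 17 of these markers on MOE430A ran from 12.97 to 13.39 on the day 4 arrays, 13.35 to 13.45 on day 6, 14.26 to 15.69 on day 16 and 14.55 to 14.79 on day 30. The day 16 and day 30 ranges lay above those of days 4 and 6. The osteoclast markers Calcr and Itgb3 were too dim to be tested. Mmp9, Oscar, Tcirg1 and Atp6v0d2 were tested and read -0.44, 0.54, -0.14 and 0.34 between days 4 and 30, none past the test.

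Of 17 visceral endoderm and yolk sac markers 9 rose and none fell between days 4 and 30, with a median of 1.86, and none rose or fell between days 6 and 16. The Apoa4 call was lost whichever of the 6 arrays was left out (adjusted p from 0.0518 to 0.184). That of Foxa2 was lost in 3 of the 6 cases (adjusted p up to 0.179). Those of Gata4 and Dab2 were lost in 1 case each (adjusted p = 0.101 and 0.0537). Afp, the fetal serum protein, was at least 53.2-fold higher. Sox17 and Gata6, endoderm transcription factors, rose 10.1-fold and 5.95-fold, and Rbp4, a retinol carrier, 6.27-fold. Without replicate 3 of day 4 the rise was 4.89-fold for Sox17 and 3.57-fold for Gata6, and the log2 difference of Afp, 6.02 over all arrays, was 4.86, or 7.35 without replicate 1 of day 4. The summed log2 signal of the list ran from 12.93 to 15.20 on day 4 and from 16.54 to 16.66 on day 30.

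All 10 parietal endoderm markers, Sparc among them, mostly basement membrane proteins that other cells also make, rose between days 4 and 30, with a median of 4.89, and 7 rose between days 6 and 16. Their summed log2 signal ran from 13.54 to 14.72 on day 4 and from 18.70 to 19.11 on day 30. The part of any of these cell types in the lysosomal rise was not tested.

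The osteoblast label was checked in the same way. Of 12 osteoblast markers 5 could be tested and 3 rose, the collagen genes Col1a1 (16.7-fold) and Col1a2 (16.8-fold) and Sparc (25.9-fold), which fibroblasts and endoderm also make. Without replicate 1 of day 4 the rise was 32.5-fold for Col1a1 and 26.8-fold for Col1a2, and without replicate 3 of day 4 it was 11.0-fold for Col1a1. Sp7, the osteoblast transcription factor, read 0.37 (adjusted p = 0.502) and Alpl, the mineralising phosphatase, -1.23 (adjusted p = 0.119). The mature markers Ibsp, Dmp1 and Phex were too dim to be tested, and the other osteoblast markers had no probe set of their symbol alone. Of 10 pluripotency genes 7 fell and 1, Klf4, rose.

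The genes most like the lysosomal course were sought among the genes tested on MOE430A. The measure was the Pearson correlation of 7 day means with the mean course of the members on that chip. The closest 5 outside the list were Ifngr2 (0.997), Isg20 (0.997), Ifi202b (0.996), Gadd45a (0.996) and Timp2 (0.995). Ifngr2 is a receptor chain for interferon gamma, Isg20 and Ifi202b are interferon-induced genes, Gadd45a responds to DNA damage and Timp2 inhibits matrix metalloproteinases. Within the list, Ctsb (0.997) and Fuca1 (0.994) were closest to the mean course, which they help to make, and Mcoln1 (-0.538) and Npc1 (-0.546) had the lowest values, though neither differed past the threshold between days (F test in limma, adjusted p = 0.468 and 0.93). With 7 points shared by all genes these values describe shape only.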

How the data were processed

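RNA from 7 days with 3 replicates each was measured on 2 Affymetrix chips. The authors deposited a signal for each probe set, made with MAS5 per the submitters' processing notes, and the trimmed mean of each array's signal was 1500.6 to 1500.7 on MOE430A and 1500.2 to 1500.3 on MOE430B, so arrays had been scaled to a common mean. Scan times and control ratios came from the deposited array files. The log2 of the signal was used without an offset. Control probe sets were left out, and testing required a signal over the array's 40th percentile on 3 or more of the 21 arrays, which left 16686 and 18239 probe sets. A gene that passes only through its late arrays was thereby also tested. Each chip was fitted by itself with limma 3.58.1 in R 4.3.3 (1 coefficient per day, eBayes with trend), which left 14 residual degrees of freedom, with Benjamini-Hochberg adjustment over the chip's probe sets in each comparison and a threshold of 0.05. Background shares used 1 probe set per gene, chosen as for the members. A fold is given as a lower bound where a group's values fell below the chip's 20th percentile (log2 6.96 and 7.67). On data simulated for day 30 with day 4, the fit recovered 18% of log2 changes of 1 and 74% of changes of 2 on MOE430A, and 5% and 45% on MOE430B. The simulation changed far fewer probe sets than the 6083 called in the data between days 4 and 30. The adjustment is stricter where few probe sets change, so these rates may understate recovery in the data. Array number limits the precision.

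Probe sets were named through the platform tables, and all 34863 symbols found by Entrez ID were current. Of the members' probe sets, 24 were of the plain type and 14 of types that can match several transcripts or genes. The members and all gene lists were chosen with earlier results of these data known, and named genes were the 8 largest rises, the member with the smallest F test p of each role, up to 4 genes past the threshold of each other list and the 5 genes of most similar course. Alternatives covered the filter, normalization, offset, variance model, replicate and scan blocks, RNA ratio, choice of probe set and each array left out.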

Additional observations from a re-analysis of the deposited data

How the results depend on the processing

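Over the alternatives run, the number of members that rose between days 4 and 30, 22 as reported, moved most with the choice of probe set. It was 15 with the next highest probe set of each gene, 20 to 22 in the other settings, and 18 to 21 with 1 array left out. No member fell except 1 (Arsb) with the next highest probe set. That probe set choice also moved the rise by day 8 from 7 to 4 genes, the rise by day 25 from 20 to 13 and the median difference between days 4 and 30 from 1.11 to 0.75, and it turned Ctsl to -0.48, Neu1 to -0.33, Ctsa to -0.60 and Ppt1 to -0.45, none past the threshold; the cause was not tested. It left 36 members with a value. Only 15 of the 22 risers had another probe set. Of those, only Ctsb, Ctsh, Ctsz, Lamp2, Psap, Scarb2 and Tpp1 rose with it. The remaining risers were read by the same probe set as before, so this setting did not test them. The count of 15 rises includes these untested genes, and Lipa, which had not risen before. Fuca1 (0.95, adjusted p = 0.0931 in limma) and Ctsc (0.61, adjusted p = 0.353) did not pass with their next probe set, though another Ctsc probe set rose (adjusted p = 0.0286). The next probe set of Man2b1 was too dim to be tested. With 1 array left out, the genes called in the F test numbered 22 to 26, the rise was 2 to 9 genes by day 8, 15 to 20 by day 16, 18 to 19 by day 25 and 8 to 12 from day 6 to day 16, none fell in either comparison, and the median difference was 0.88 to 1.14. The calls over the 6 successive steps were 1 to 5, lowest without replicate 1 of day 16 and highest without replicate 2 of day 4, and 5 with the replicate number as a block, against 3. The numbers in the titles were not shown to pair the samples: the deviations of 63 same-numbered pairs had a median correlation of 0.031 (from -0.102 to 0.356). For 16 of 21 arrays, the mean correlation with arrays of other days was highest for their own number, a hint from the data only. The replicate block changed no other count by over 1.5 times. A block by the number in the array files, which differs from the titles on 2 arrays and was added after seeing the data, also gave 5 steps. Between days 4 and 30, 6083 probe sets were called on both chips, 4861 with the Gapdh ratio as a covariate, 5508 without the variance trend and 6494 with the replicate block. Arrays limit what can be seen: changes of 1 log2 unit were mostly missed in the simulation, which changed far fewer probe sets than were called in the data. Its rates may thus be too low for the data, but a gene that did not pass may still have changed.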
